A study of Homo sapiens with 10 samples.

Results

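The genes that carry out or assist active DNA demethylation were examined in HCT116 cells and in their DNMT1 KO derivative. They are 10 listed genes, TET1, TET2, TET3, TDG, SMUG1, MBD4, GADD45A, GADD45B, CXXC4 and CXXC5, chosen by name out of 58884 genes in each count table. The list was drawn up with earlier results of these data known. All 10 were matched to 1 Ensembl gene and had enough counts to be tested. HCT116 is a human colorectal carcinoma line, genotype WT, and was represented by 6 libraries (replicates 1, 2, 3, 7, 8 and 9). DNMT1 KO cells were derived from it by targeting DNMT1, the gene of the maintenance methyltransferase, and were represented by 4 libraries (replicates 1 to 4). The study's text states that they remain hypomorphic, with a shortened DNMT1 protein. As it is a single derivative line, the targeted gene and other properties of that line cannot be told apart. No treatment separated the groups, and both were grown in the same medium.

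Active demethylation removes methyl groups from cytosine without waiting for replication to dilute them. TET enzymes oxidise methylcytosine stepwise to hydroxymethylcytosine, formylcytosine and carboxylcytosine. A DNA glycosylase then cuts out the last forms, and base excision repair fills the gap with an unmodified cytosine. CXXC domains bind unmethylated CpG dinucleotides and bring some of these proteins to DNA, and the GADD45 proteins are stress-induced adaptors that have been proposed to bring repair factors to methylated sites.

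Of the 10 genes, 1 was called higher in DNMT1 KO, TET1, and 1 was called lower, CXXC5. Calls required an adjusted p under 0.05 in edgeR's quasi-likelihood test together with a log2 change beyond 1 in size, and 13.9% of the 19279 genes tested were called by this rule, 7.42% higher and 6.49% lower. Read against that share, 2 calls among 10 genes are no result about the set, and the findings below are those of single genes. The libraries of the groups did not overlap for the same 2 genes, 1 with DNMT1 KO above and 1 with it below, as was the case for 15.2% of all genes tested, 8.4% above and 6.79% below. The median log2 fold change was 0.22 over the 10 genes, 6 of which were positive, and -0.0698 over all genes tested, 45.6% of which were positive.

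**Figure D1:**
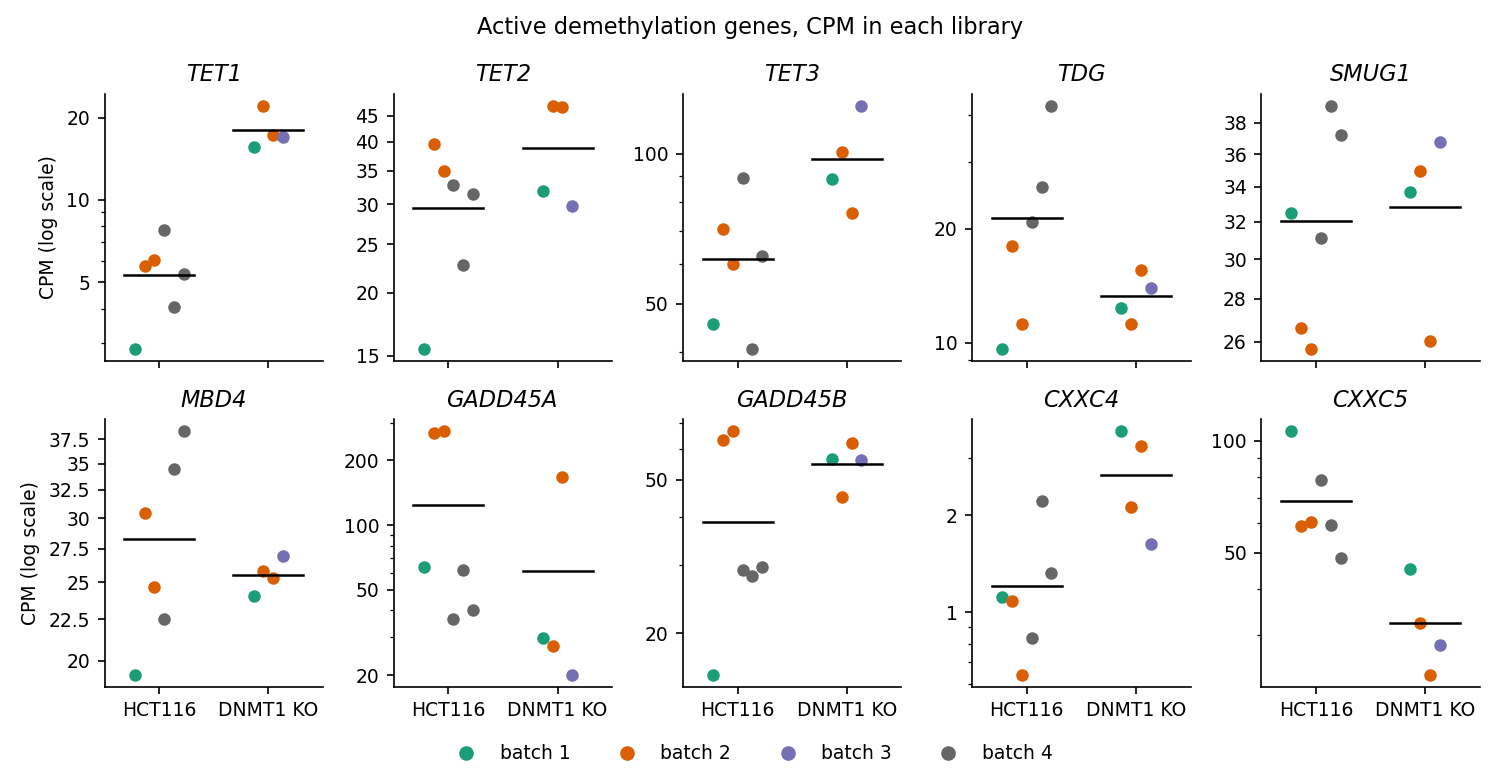
Expression of the 10 genes in each library, in CPM (counts scaled to 1000000 per library) on a log axis that differs between panels. Points are libraries coloured by batch and horizontal lines are group means. TET1 is higher in all 4 DNMT1 KO libraries than in any HCT116 library and CXXC5 is lower in all 4, whereas the other 8 genes overlap between the groups.

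The libraries held 35418732 to 85991812 counts in HCT116 and 26700853 to 55732013 counts in DNMT1 KO. The targeted gene DNMT1 (ENSG00000130816) was at 89.8 CPM in the lowest HCT116 library, 135 CPM in the median and 263 CPM in the highest, where CPM are counts per 1000000 of the library total scaled by TMM factors. It was at 14.1, 19.9, 21.5 and 22.3 CPM in DNMT1 KO replicates 1 to 4, below every HCT116 library. The labels give 4 batches. Replicate 1 of both groups formed batch 1 and replicates 2 and 3 of both groups formed batch 2, while batch 3 held DNMT1 KO replicate 4 alone and batch 4 held HCT116 replicates 7, 8 and 9 alone. Among the libraries used here, batch and group cannot be told apart for batches 3 and 4. Counts of DNMT1 KO replicate 4 also differed in form, as 39.9% of its genes with 1 to 10 counts had an even count, against 64.4 to 70.0% in the other 9 libraries. Without it the same numbers of the 10 genes were called, 1 higher and 1 lower.

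TET1 is an oxidase that, like TET3, carries a CXXC domain of its own, and it is known for its expression in stem and germ cells. It lies on the plus strand of chromosome 10 (ENSG00000138336, chr10:68560337-68694487, hg38). TET1 was at 2.85 CPM in the lowest HCT116 library, replicate 1, at 5.54 CPM in the median and at 7.73 CPM in the highest, replicate 7. It was at 15.7, 22.2, 17.4 and 17.0 CPM in DNMT1 KO replicates 1 to 4. Every DNMT1 KO library lay above every HCT116 library, with a gap from 7.73 to 15.7 CPM between the groups.

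TET1 thus rose from 5.29 ± 1.69 CPM (SD, n = 6) to 18.1 ± 2.83 CPM (SD, n = 4), a 3.41-fold difference. The change was 1.77 on the log2 scale (SE 0.28 and adjusted p = 0.000366 by edgeR). The raw counts behind it were 92 to 555 per library in HCT116 and 621, 1247, 1094 and 490 in DNMT1 KO. Within batch 1, with 1 library a group, the log2 ratio of TET1 CPM was 2.46, and within batch 2, with 2 a group, it was 1.745. TET1 was called higher in each of the 20 alternative fits, with log2 fold changes of 1.66 to 1.98. The processed pseudogene TET1P1 held 4 counts in all HCT116 libraries together and 22 in all DNMT1 KO libraries together.

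The start of TET1 and that of CXXC5 are shown because these are the 2 genes called and because DNMT1 copies methylation at CpG dinucleotides. Both windows run from 250 bases before to 50 bases after the start that the count tables use, read on the plus strand from RefSeq promoters of GRCh38.p14, with each CpG (the letters CG, which read alike on both strands) in capitals. The TET1 window is chr10:68560087-68560386 and the CXXC5 window is chr5:139647049-139647348. RefSeq holds other starts for both genes, and 8 of the 10 genes had an entry.
TET1: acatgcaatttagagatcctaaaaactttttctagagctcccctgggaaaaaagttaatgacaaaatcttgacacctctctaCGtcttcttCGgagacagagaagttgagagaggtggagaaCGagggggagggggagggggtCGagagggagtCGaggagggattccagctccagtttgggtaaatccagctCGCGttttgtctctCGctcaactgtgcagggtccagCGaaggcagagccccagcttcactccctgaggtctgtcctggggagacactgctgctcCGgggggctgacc
CXXC5: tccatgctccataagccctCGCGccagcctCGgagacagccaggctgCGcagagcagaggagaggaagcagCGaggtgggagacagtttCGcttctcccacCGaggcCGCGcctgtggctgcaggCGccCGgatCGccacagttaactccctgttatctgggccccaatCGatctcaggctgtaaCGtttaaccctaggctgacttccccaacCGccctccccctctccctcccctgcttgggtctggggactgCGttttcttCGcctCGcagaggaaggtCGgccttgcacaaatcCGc
The TET1 window holds 10 CpGs, and 56.4% of the 35116 RefSeq promoter windows of this length hold as many or more. The CXXC5 window holds 20 CpGs, a number that 41.2% of all windows reach or exceed. Windows at the other RefSeq starts hold 6 and 11 CpGs for TET1 and from 2 to 39 for CXXC5. Which start these cells use was not measured. The median window holds 14. These letters give the density of CpGs and not their methylation, which was not measured in these libraries.

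TET2, the oxidase most often mutated in blood cancers, lacks a CXXC domain (ENSG00000168769, chr4:105145875-105279816, plus strand). TET2 ranged from 15.5 to 39.5 CPM in HCT116, with a median of 32.2 CPM. It was at 31.9, 47.2, 46.8 and 29.8 CPM in DNMT1 KO replicates 1 to 4. The groups overlapped, as DNMT1 KO replicates 1 and 4 lay among the HCT116 libraries and DNMT1 KO replicates 2 and 3 above them. TET2 differed by 0.40 on the log2 scale (SE 0.27 and adjusted p = 0.380 by edgeR) and did not pass the test here or in any of the 20 alternative fits.

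TET3, the oxidase that acts on the paternal genome in the zygote, was the most abundant of the TET genes (ENSG00000187605, chr2:73986404-74108176, plus strand). TET3 ranged from 40.6 to 89.5 CPM in HCT116, with a median of 61.1 CPM. It was at 89.1, 100.6, 75.9 and 124.7 CPM in DNMT1 KO replicates 1 to 4. HCT116 replicate 7 was the single HCT116 library among the DNMT1 KO values, above their replicates 1 and 3. The log2 fold change of TET3 was 0.67 (SE 0.25 and adjusted p = 0.0873 by edgeR), which did not pass the threshold. The adjusted p was under 0.05 in 2 of the 20 alternative fits, whose log2 fold changes ran from 0.44 to 0.87 and so stayed below 1.

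The balance among the TET genes was examined within each library, where library size cancels. The log2 ratio of TET1 to TET2 counts was -2.48 ± 0.23 in HCT116 (SD, n = 6) and -1.09 ± 0.26 in DNMT1 KO (SD, n = 4). The difference of 1.39 left no overlap between the groups (two-sided exact permutation test, p = 0.00952, adjusted over 3 ratios 0.0143). The log2 ratio of TET1 to TET3 counts differed by 1.13, from -3.55 ± 0.25 (SD, n = 6) to -2.42 ± 0.34 (SD, n = 4), again without overlap (exact permutation p = 0.00952, adjusted 0.0143). This p is the smallest that 4 against 6 libraries can give. The log2 ratio of TET2 to TET3 counts differed by -0.26, less than its spread within DNMT1 KO (SD 0.58), with p = 0.381 in the exact permutation test. Within batches 1 and 2, the TET1 to TET2 difference was 1.41 and 1.39 and the TET1 to TET3 difference was 1.49 and 1.31, whereas the TET2 to TET3 difference was 0.075 and -0.087.

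Per kilobase of exon, TET1 made up 7.44 ± 0.90% of the summed TET level in HCT116 (SD, n = 6, range 5.98 to 8.23%) and 15.1, 17.2, 16.7 and 12.9% in DNMT1 KO replicates 1 to 4. TET3 held the largest share in all 10 libraries, at 64.0% or more in HCT116 and 57.1 to 74.0% in DNMT1 KO. TET2 held 19.0 to 27.8% in HCT116 and 13.1 to 26.2% in DNMT1 KO. The summed level of the TET genes was 4.95 to 10.1 CPM per kilobase in HCT116 and 10.8, 13.4, 10.8 and 13.7 CPM per kilobase in DNMT1 KO, without overlap. These shares and sums are a description and were not tested. They depend on the annotated exon lengths, 9612 bases for TET1, 16474 for TET2 and 12271 for TET3. Which transcripts these cells use was not measured.

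**Figure D2:**
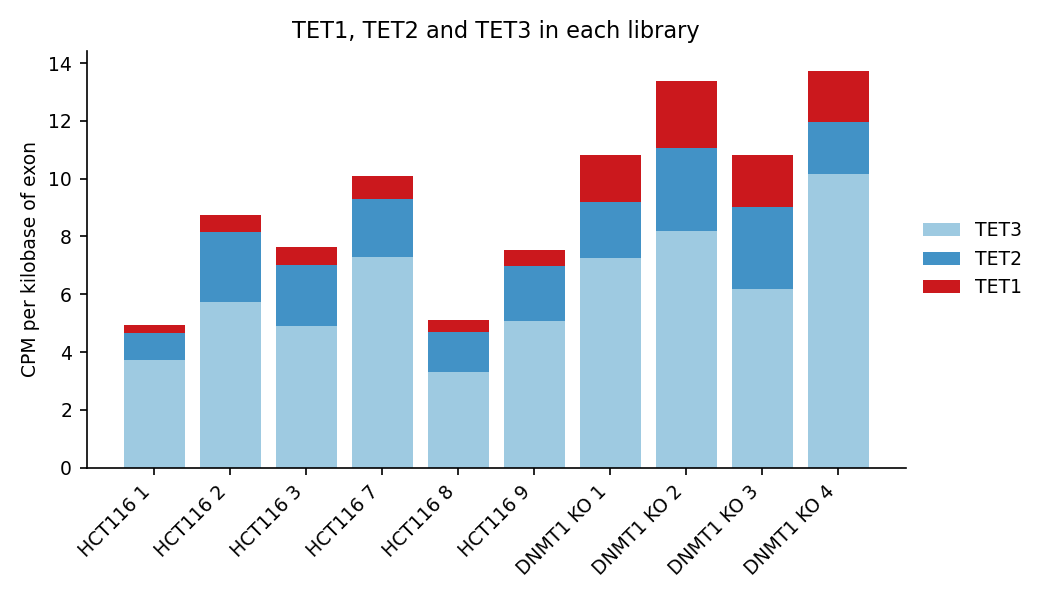
Level of TET1, TET2 and TET3 in each library, in CPM per kilobase of exon, stacked so that the bar height is their sum. The sum runs from 4.95 to 10.1 in the 6 HCT116 libraries and from 10.8 to 13.7 in the 4 DNMT1 KO libraries, and the TET1 segment is a larger share of each DNMT1 KO bar.

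None of the glycosylases TDG, SMUG1 and MBD4 was called. TDG excises thymine mispaired with guanine, as well as formylcytosine and carboxylcytosine, and is the glycosylase that acts downstream of the TET enzymes (ENSG00000139372, chr12:103965822-103988874, plus strand). TDG ranged from 9.62 to 42.3 CPM in HCT116, with a median of 19.5 CPM, and was at 12.4, 11.2, 15.6 and 13.9 CPM in DNMT1 KO replicates 1 to 4. The DNMT1 KO libraries lay within the HCT116 range, below HCT116 replicates 2, 7, 8 and 9. The log2 fold change of TDG was -0.69 (SE 0.37 and adjusted p = 0.251 by edgeR), and 0.036 when only batches 1 and 2 were fitted with a batch term. Within HCT116, TDG differed by 1.19 on the log2 scale between batch 4 and batches 1 and 2 (SE 0.36 and adjusted p = 0.0578 by edgeR), which did not pass the threshold.

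The TDG value carries a further limit. TDGP1 is a processed pseudogene, an intronless copy of the TDG transcript, at chr12:25803298-25804526 on the plus strand. Over its 1229 bases it matched the TDG transcript in GENCODE v44 at 97.8% of positions without a gap, and all 9 exon junctions of TDG were continuous in it. The window below covers 25 bases on each side of the junction of TDG exons 5 and 6, which are 201 bases apart in the genome, beside the matching stretch of TDGP1 (chr12:25803886-25803935). It is shown because 50 bases is the read length, and capitals mark the base that differs.
TDG: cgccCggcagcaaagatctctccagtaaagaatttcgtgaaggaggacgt
TDGP1: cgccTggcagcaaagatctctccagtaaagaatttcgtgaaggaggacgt
Such windows around the 8 junctions within the coding sequence differed from TDGP1 at 0 to 3 bases. The reads were mapped with bowtie2, which does not split a read across an intron, so that a TDG read across such a junction has its unbroken match in TDGP1 and not in TDG. Reads of TDG and TDGP1 cannot be told apart where the sequences are alike, and mapping quality filters remove reads that match both equally.

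TDGP1 held more counts than TDG in all 10 libraries, 320 to 5438 in HCT116 against 311 to 3643 for TDG, and 673, 1459, 1348 and 625 in DNMT1 KO against 490, 629, 981 and 401 for TDG. The log2 ratio of TDG to TDGP1 counts was -0.55 ± 0.35 in HCT116 (SD, n = 6) and -0.69 ± 0.36 in DNMT1 KO (SD, n = 4), a difference of -0.14 within the spread of the libraries (exact permutation p = 0.533). With the counts of TDG and TDGP1 summed in each library, the log2 fold change was -0.62 (SE 0.37 and adjusted p = 0.305 by edgeR), against -0.69 for TDG alone.

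**Figure D3:**
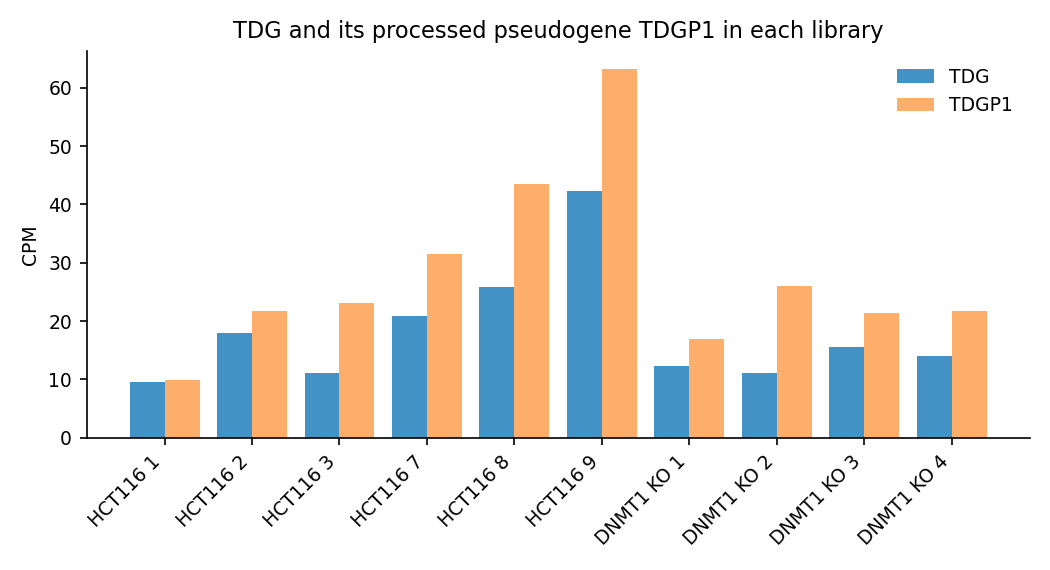
TDG and its processed pseudogene TDGP1 in each library, in CPM. The TDGP1 bar is the taller one in all 10 libraries, and both genes reach their highest values, 42.3 and 63.2 CPM, in HCT116 replicate 9.

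SMUG1, which removes uracil and hydroxymethyluracil from DNA (ENSG00000123415, chr12:54121277-54189008, minus strand), was at 32.1 ± 5.44 CPM (SD, n = 6) in HCT116 and 32.9 ± 4.73 CPM (SD, n = 4) in DNMT1 KO. Its libraries ran from 25.7 to 39.2 CPM and from 26.0 to 36.8 CPM. SMUG1 differed by 0.036 on the log2 scale (SE 0.21 and adjusted p = 0.934 by edgeR). MBD4, a glycosylase for thymine opposite guanine that also binds methylated CpGs (ENSG00000129071, chr3:129430944-129440179, minus strand), was at 28.3 ± 7.40 CPM (SD, n = 6) in HCT116 and 25.5 ± 1.21 CPM (SD, n = 4) in DNMT1 KO. The DNMT1 KO libraries, at 24.0 to 26.9 CPM, lay within the HCT116 range of 19.2 to 38.4 CPM. For MBD4 the log2 fold change was -0.15 (SE 0.235 and adjusted p = 0.734 by edgeR), and it changed sign to 0.051 when libraries were scaled by their totals alone. Exons of other genes cover 2.97% of the exonic bases of SMUG1 and 4.29% of those of MBD4, where the opposite strand carries IFT122.

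GADD45A, a gene induced by DNA damage and other stress (ENSG00000116717, chr1:67685201-67688334, plus strand), varied more within the groups than between them. GADD45A was at 63.8 CPM in HCT116 replicate 1, at 268 and 274 CPM in replicates 2 and 3, and at 36.6, 61.7 and 40.4 CPM in replicates 7, 8 and 9. In DNMT1 KO replicates 1 to 4 it was at 29.9, 27.3, 167 and 20.1 CPM. The highest HCT116 library was 7.48 times the lowest, and the highest DNMT1 KO library was 8.32 times the lowest. The log2 fold change of GADD45A was -1.02 (SE 0.72 and adjusted p = 0.397 by edgeR). Without DNMT1 KO replicate 3 it was -2.27 and was called lower (edgeR adjusted p = 0.0478), so 1 library decided that call.

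GADD45A differed between batches of HCT116, but also within batch 2 of DNMT1 KO, at 27.3 and 167 CPM in replicates 2 and 3. Within HCT116, GADD45A was lower in batch 4 than in batches 1 and 2 by a log2 fold change of -2.15 (SE 0.47 and adjusted p = 0.0153 by edgeR), and it was the single one of the 10 genes called there, in a comparison that called 8.03% of the 18656 genes tested, 4.94% lower. Of the 15 stress genes and GADD45 relatives tested, 12 were highest among the HCT116 libraries in replicate 2 or 3, 11 were highest among the DNMT1 KO libraries in replicate 3, and 10 were both. The share of all genes tested with this pattern was not counted, so these counts only describe the list. DDIT3, ATF3 and SESN2 were among these 10, whereas EGR1, an immediate early gene, was highest in HCT116 replicate 8 (589 CPM) and DNMT1 KO replicate 2 (553 CPM) and lowest of the DNMT1 KO libraries in replicate 3 (395 CPM). DDIT3, the transcription factor CHOP of the unfolded protein response, was at 105 and 161 CPM in HCT116 replicates 2 and 3 and at 9.53 to 22.5 CPM in the other HCT116 libraries. In DNMT1 KO replicate 3 DDIT3 was at 40.4 CPM, against 8.13 to 9.47 CPM in the other 3. SESN2, a stress-induced inhibitor of growth signalling, was at 75.8 CPM in that library and at 13.3 to 26.5 CPM in the other 3. DNMT1 KO replicate 2, of the same batch 2, did not share the high values. The part of stress in the GADD45A values was not tested.

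GADD45B, the relative of GADD45A that is also induced by growth and inflammatory signals (ENSG00000099860, chr19:2476122-2478259, plus strand), was steadier in DNMT1 KO. GADD45B was at 56.7, 44.9, 62.2 and 56.1 CPM in DNMT1 KO replicates 1 to 4. In HCT116 it was at 15.7 CPM in replicate 1, at 63.3 and 66.7 CPM in replicates 2 and 3 and at 28.1 to 29.6 CPM in replicates 7, 8 and 9. The DNMT1 KO libraries lay between the batch 2 libraries of HCT116 and the other HCT116 libraries. GADD45B differed by 0.50 on the log2 scale (SE 0.35 and adjusted p = 0.386 by edgeR), while its ratio of mean CPM was 1.86 (log2) in batch 1 and -0.28 in batch 2.

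**Figure D4:**
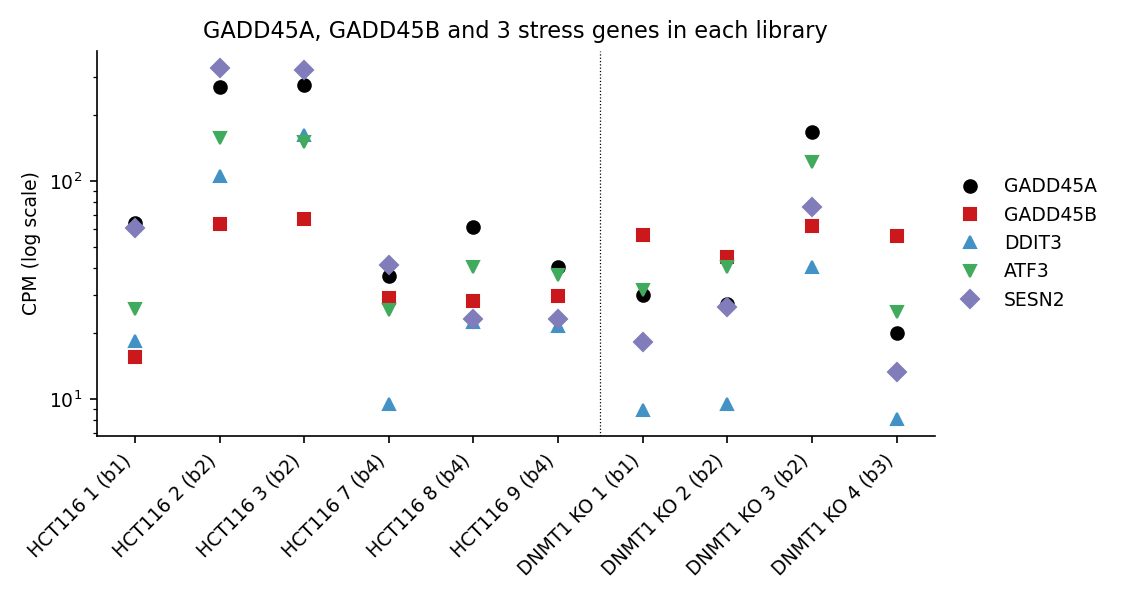
GADD45A, GADD45B and the stress genes DDIT3, ATF3 and SESN2 in each library, in CPM on a log axis, with the batch in brackets after the replicate number and HCT116 left of the dotted line. GADD45A stands at 268 and 274 CPM in HCT116 replicates 2 and 3 and at 167 CPM in DNMT1 KO replicate 3, where DDIT3, ATF3 and SESN2 are also highest within their group.

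CXXC4 and CXXC5 encode small CXXC-domain proteins, both also known as regulators of Wnt signalling. CXXC4 derives from the ancestral TET2 gene, whose CXXC domain it holds, and in these tables it ended 651 kb before the start of TET2 on chromosome 4 (ENSG00000168772, chr4:104468308-104494901, minus strand). CXXC4 had few reads, 24 to 143 counts per library in HCT116 and 144, 119, 207 and 47 counts in DNMT1 KO replicates 1 to 4. This came to 0.642 to 2.22 CPM in HCT116, with a median of 1.10 CPM, and to 3.64, 2.12, 3.29 and 1.63 CPM in DNMT1 KO. HCT116 replicate 8, at 2.22 CPM, lay above DNMT1 KO replicates 2 and 4, and the other 5 HCT116 libraries lay below all DNMT1 KO libraries. The log2 fold change of CXXC4 was 1.15 (SE 0.39 and adjusted p = 0.0616 by edgeR) and did not pass the threshold. CXXC4 was called higher in 6 of the 20 alternative fits, among them the fit without HCT116 replicate 8 (log2 fold change 1.41, edgeR adjusted p = 0.0224) and the fit of batches 1 and 2 with a batch term (1.66, edgeR adjusted p = 0.0253). Its antisense gene CXXC4-AS1 shares 1.65% of its exonic bases and held 0 counts in HCT116 and 3 in DNMT1 KO.

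CXXC5 fell (ENSG00000171604, chr5:139647299-139683882, plus strand). CXXC5 was at 48.4 CPM in the lowest HCT116 library, replicate 9, at 59.9 CPM in the median and at 106 CPM in the highest, replicate 1. It was at 45.3, 32.5, 23.5 and 28.3 CPM in DNMT1 KO replicates 1 to 4. All 4 lay below all 6 HCT116 libraries, replicate 1 by a narrow margin. The mean level went from 68.7 ± 20.8 CPM (SD, n = 6) to 32.4 ± 9.35 CPM (SD, n = 4), a log2 fold change of -1.08 (SE 0.27 and adjusted p = 0.0124 by edgeR). Taken by batch, the log2 ratio was -1.23 in batch 1 and -1.10 in batch 2. The direction held in all 20 alternative fits, but the change was near the limit of 1 and was called in 16 of them. Without HCT116 replicate 1 it was -0.89 and without DNMT1 KO replicate 3 it was -0.93, each no longer called although the adjusted p stayed under 0.05 (0.0254 and 0.0466, edgeR). In batch 2 alone CXXC5 was at -1.09, past that limit, and was not called because its adjusted p was 0.0965 (edgeR).

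**Figure D5:**
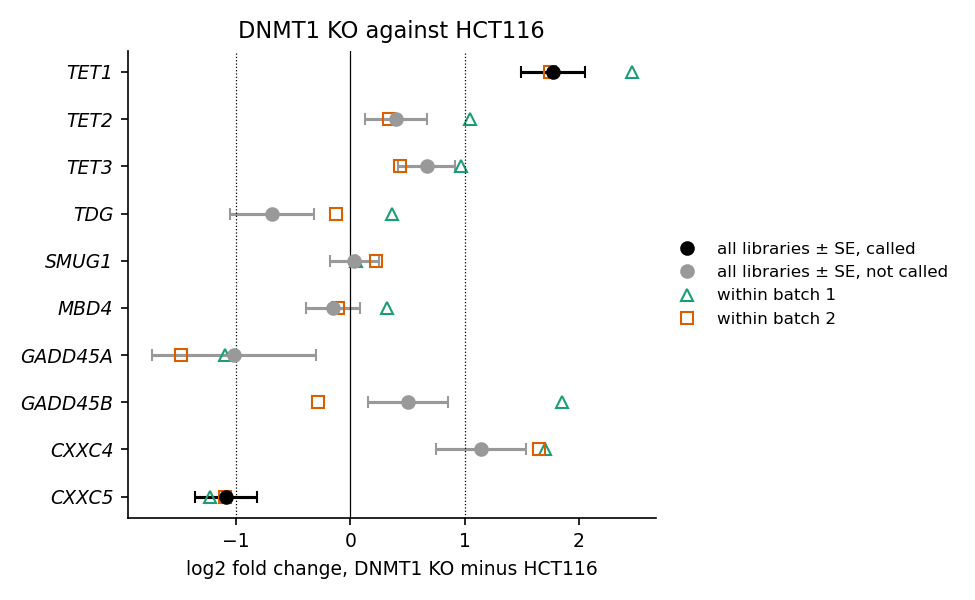
Log2 fold change of the 10 genes, DNMT1 KO minus HCT116, from the fit of all libraries (circles ± SE, black where called) and log2 ratios of mean CPM within batch 1 (triangles, 1 library a group) and batch 2 (squares, 2 a group). Dotted lines mark -1 and 1. Values lie on 1 side of 0 for TET1 and CXXC5, and also for TET2, TET3, SMUG1, GADD45A and CXXC4, which were not called. TDG, MBD4 and GADD45B change sign between batches.

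Levels of different genes were compared per kilobase of exon, by annotated length. Mapping without splitting reads also loses reads at exon junctions, to an extent per gene that was not measured. In HCT116 the mean levels, in CPM per kilobase, were 64.4 for GADD45A, 18.1 for both GADD45B and CXXC5, 8.43 for MBD4, 5.32 for SMUG1, 5.00 for TET3, 4.36 for TDG, 1.79 for TET2, 0.551 for TET1 and 0.207 for CXXC4. Among neighbours in this order, the ranges did not overlap between CXXC5 and MBD4 or between TET2 and TET1, and overlapped for the other 7 pairs. In DNMT1 KO the mean levels were 31.8 for GADD45A, 25.7 for GADD45B, 8.54 for CXXC5, 7.95 for TET3, 7.61 for MBD4, 5.45 for SMUG1, 2.72 for TDG, 2.36 for TET2, 1.88 for TET1 and 0.458 for CXXC4. TET1 thus stood below TET2 in every HCT116 library by a clear gap, whereas in DNMT1 KO its range of 1.63 to 2.31 overlapped the TET2 range of 1.81 to 2.86. TET1 remained the lower of the pair in each of the 4 libraries, though in replicate 4 only by 1.77 against 1.81.

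The genes whose pattern over the 10 libraries was nearest to that of each TET gene were found by the root mean square difference of centred log2(CPM + 0.5), among 14287 other genes. For TET1 they were GNG12-AS1 (0.24), MTNR1A (0.28) and KCNK3 (0.30). These differences compare with 0.91 for the distance of TET1 from its own mean, and all 3 genes were low in HCT116, at 0.484, 0.557 and 0.955 CPM, and were called higher. Their log2 fold changes were 2.71, 2.11 and 2.24, larger than the 1.77 of TET1, as adding 0.5 shrinks changes at such low levels. Nearest genes were picked from these data by likeness, so whether they were called is no separate result. For TET2 the nearest were PCF11 (0.15), ZSCAN29 (0.17) and SETD2 (0.18), and for TET3 they were ZNF512B (0.13), XYLB (0.13) and SRCAP (0.17), none of which was called.

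Genes within 500 kb of the 10 genes were counted to see whether the changes extended along the chromosome. Around TET1, 1 of 18 genes tested was called, SRGN, which was higher by a log2 fold change of 5.50 (SE 0.64 and adjusted p = 2.58e-05 by edgeR). Around CXXC5, 1 of 17 was called, PROB1, which was higher, opposite to CXXC5. Around TET2 none of 7 was called, and no gene within 500 kb of CXXC4 had enough counts to be tested. Around GADD45A, 3 of 6 were called, WLS and GNG12-AS1 higher and DIRAS3 lower, while GADD45A itself was not. Around SMUG1, 5 of 26 were called, HOXC11, HOXC13 and HOTAIR lower and CBX5 and HOXC10 higher. The counts were 3 of 34 around TET3, 2 of 13 around TDG, 3 of 19 around MBD4 and 1 of 29 around GADD45B. In all, 19 of 169 neighbours tested were called, 11.2%, beside the 13.9% of all genes tested, and no single neighbourhood was tested against the rest.

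The rest of the pathway was read from lists of further genes, whose counts stand beside 7.42% called higher and 6.49% called lower among all genes. Of 19 base excision repair genes, all tested, 1 was called lower and none higher, with a median log2 fold change of -0.0093. The gene was NEIL1, a glycosylase for oxidised bases, which fell from 7.77 ± 3.45 CPM (SD, n = 6) to 2.69 ± 0.681 CPM (SD, n = 4) without overlap (log2 fold change -1.53, SE 0.38 and adjusted p = 0.0124 by edgeR). UNG, the main uracil glycosylase, was at 228 and 227 CPM, and APEX1, the endonuclease that opens the strand at an abasic site, was at 368 and 379 CPM. PARP1, which signals strand breaks, had a log2 fold change of -0.58 (edgeR adjusted p = 0.252) and POLB, the polymerase that fills the gap, one of -0.44 (edgeR adjusted p = 0.365).

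Of 18 cofactor, partner and reader genes of the TET enzymes, 15 were tested and none was called, with a median of 0.093. They included OGT, the glycosyltransferase bound by TET proteins (145 and 108 CPM), and IDH1 and IDH2, which make the cosubstrate alpha-ketoglutarate (119 and 93.5 CPM, 41.7 and 47.0 CPM). None of 7 other CXXC-domain genes was called, with a median of 0.27. Among them were KDM2A, at 142 and 161 CPM, and KMT2A, with a log2 fold change of 0.53 (edgeR adjusted p = 0.280). Of 10 cytidine deaminases, which have been discussed as another route to demethylation, 5 were tested, with a median of 0.53. APOBEC3G was called higher, at 1.25 to 8.63 CPM in DNMT1 KO against 0 to 0.433 CPM in HCT116 (log2 fold change 4.76, SE 0.77 and adjusted p = 0.000465 by edgeR). APOBEC3H was called lower, at 0.0695 to 0.270 CPM against 0.418 to 1.86 CPM (log2 fold change -2.21, SE 0.54 and adjusted p = 0.0105 by edgeR). APOBEC1 had no count in any library. Without DNMT1 KO replicate 4, APOBEC3F was called higher as well, so that 2 were called.

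Of 16 GADD45 relatives and stress genes, 15 were tested and 2 were called lower, with a median of -0.65. They were CDKN1A, the p53-induced inhibitor of cyclin-dependent kinases (log2 fold change -2.28, SE 0.40 and adjusted p = 0.000855 by edgeR), and BTG2, another growth inhibitor induced by p53 (-1.74, SE 0.29 and adjusted p = 0.000622 by edgeR). When only batches 1 and 2 were fitted, with a batch term, 5 were called lower, DDIT3, GDF15 and SESN2 in addition. Over all genes that fit called 1303 of 18681 lower. Its HCT116 libraries were replicates 1, 2 and 3, with SESN2 at 60.6, 328 and 321 CPM. In HCT116 replicates 7, 8 and 9, left out of it, SESN2 was at 41.1, 23.3 and 23.3 CPM. Of 5 methyltransferase and maintenance genes tested, DNMT1 alone was called, and the list's median was -0.064. DNMT3A (log2 fold change 0.71, edgeR adjusted p = 0.0641) and DNMT3B (-0.81, edgeR adjusted p = 0.0898) did not pass. None of 10 proliferation genes was called, with a median of -0.12, and MKI67 was at 510 and 586 CPM.

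Markers of cell identity moved with the groups. Of 7 colon epithelium markers tested, EPCAM, KRT8, KRT18 and CDH1 were called lower and VIL1 higher, and the list's summed level was 2520 to 6130 CPM in HCT116 and 645 to 1431 CPM in DNMT1 KO. KRT19 was at 1021 and 488 CPM with overlapping libraries (log2 fold change -1.06, edgeR adjusted p = 0.0763), and it was called lower as well when batches 1 and 2 were fitted with a batch term. CDX2, an intestinal transcription factor, was at 30.7 and 36.0 CPM. COL3A1 and LUM of 5 fibroblast markers and PECAM1 and VWF of 4 endothelium markers were called higher. COL3A1 and LUM held 6 and 2 counts in all HCT116 libraries together, and 773 and 365 in DNMT1 KO. Of the 3 fibroblast markers tested, COL1A1, the most abundant, went the other way, from 12.5 to 6.72 CPM. It was not called (log2 fold change -0.90, edgeR adjusted p = 0.183). The defining leukocyte marker PTPRC was at 0.0039 and 0.0079 CPM. The summed level in DNMT1 KO was 11.1 to 18.1 CPM for the fibroblast list and 4.46 to 6.01 CPM for the endothelium list, against 6.22 to 19.6 and 0.290 to 1.58 CPM in HCT116. In bulk RNA, fewer cells with a transcript and less RNA per cell cannot be told apart, and the part of these shifts in the TET1 and CXXC5 values was not tested.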

How the data were processed

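RNA was measured by poly(A) RNA-seq in 6 HCT116 and 4 DNMT1 KO libraries, grouped by the genotype label. The authors trimmed paired 50-base reads with Trim Galore 0.4.1, after FastQC 0.11.4, mapped them to hg38 with bowtie2, kept reads of mapping quality 10 or more and counted exonic reads per gene with featureCounts. The deposited values are raw gene counts in 1 table per library, and no strand setting is given in the sources used here. Another 3 tables, of HCT116 replicates 4 to 6, belong to no sample in the list and were not used. The study's own RNA-seq comparison drew on more HCT116 cultures than the 6 used here. Depth was 26700853 to 85991812 counts per library, and CXXC4, at 24 to 207 counts, had the fewest reads of the 10 genes. Paired mates may have been counted singly where low counts are mostly even.

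Symbols were matched to Ensembl identifiers through GENCODE v44, in which 58472 of 58884 identifiers were found. The fit used edgeR 4.0.16 in R 4.3.3 (TMM factors, filterByExpr with default settings, glmQLFit, glmQLFTest) with the group as its term, two-sided, with Benjamini-Hochberg adjustment over the 19279 genes tested. Standard errors are the size of the log2 fold change divided by the square root of F. P-values measure the spread between these libraries, which the study describes as separate cultures. The same test compared HCT116 batch 4 with batches 1 and 2. TET ratios used log2(count + 0.5) and an exact permutation test. The edgeR step was tested on simulated data, and the permutation test on values set by hand with a known answer.

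The genes named were all 10 members, DNMT1, their pseudogenes and antisense genes, the 3 nearest genes to each TET gene, called neighbours, up to 4 genes of each list by smallest p and any list gene with an adjusted p under 0.05. UNG, APEX1, POLB, OGT, IDH1, IDH2, KDM2A, APOBEC1, MKI67, PTPRC, CDX2, EGR1, DDIT3, ATF3, SESN2 and the called neighbours of SMUG1 and GADD45A were named after their values were seen. Some list results are not reported here. The members and lists were chosen with earlier results of these data known. Alternatives were RLE factors, library totals alone, 2 other filters, DESeq2 1.42.0, 3 batch settings, a replicate block, halved counts and each library left out. Sums of TDG and TDGP1, within-batch ratios, list counts under 2 settings and counts of the highest library per stress gene were added after seeing the data.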

Additional observations from a re-analysis of the deposited data

Results flagged for a closer look

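In DNMT1 KO replicate 3, GADD45A reached 167 CPM, against 20.1 to 29.9 CPM in the other 3 DNMT1 KO libraries. It was picked out because the gap to the nearest library was 0.934 of the range of the group, beyond Dixon's critical value for 4 samples. The 10 genes and TDGP1 gave 22 groups of libraries, 1 of which stood out in this way, and chance picks out about 1 in 20 groups, here 1.1. GADD45A was called lower in DNMT1 KO without that library and not with it.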

How the results depend on the processing

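TET1 was called higher in all 20 alternative fits and TET2, TET3, TDG, SMUG1, MBD4 and GADD45B were called in none. The number called higher became 2, with CXXC4 added, with library totals alone, DESeq2, batch as a term, batches 1 and 2 with batch as a term, and without HCT116 replicate 8. The number called lower became 0, with CXXC5 lost, with library totals alone, batch 2 alone and without HCT116 replicate 1. Leaving out 1 library at a time gave 1 to 2 called higher and 0 to 1 called lower. Without DNMT1 KO replicate 3 the 1 gene called lower was GADD45A and no longer CXXC5. Library totals alone moved the median of all genes from -0.0698 to 0.139 and the calls over all genes from 1431 higher and 1251 lower to 1878 and 956. Relative to that median, TET1 stood at 1.84 under both scalings and CXXC5 at -1.01 under both. The all-gene counts were 734 higher and 766 lower with a minimum of 10 counts per library and 815 and 798 in batch 2 alone, where fewer genes or libraries entered.

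Signs turned for genes that were not called. TDG was at 0.035 with batch as a term, 0.036 in batches 1 and 2 and 0.36 within batch 1. MBD4 was at 0.051 with library totals alone, 0.034 with batch as a term, 0.036 in batches 1 and 2 and 0.32 within batch 1. SMUG1 was at -0.024 without DNMT1 KO replicate 4, the lowest value with 1 library left out, the highest being 0.16 without DNMT1 KO replicate 3, and GADD45B was at -0.28 in batch 2 alone, by the fit and by the ratio. The TET2 to TET3 difference was 0.075 within batch 1. The causes were not tested. The TET1 to TET3 difference was 1.49 within batch 1. In batches 1 and 2 alone the TET1 to TET2 and TET1 to TET3 differences were 1.40 and 1.37, with p = 0.1 each in the exact permutation test, the smallest that 3 against 3 libraries can give.

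Replicate numbers 1 to 3 are shared by the groups, but deviations from the group means correlated by 0.547, -0.266 and 0.375 within a number, so the numbers were not taken as pairs, and only 2 of the 3 HCT116 libraries correlated best with their own number. With the replicate block 2 of the 10 genes were called higher and 1 lower, TDG was at 0.054 and MBD4 at 0.041, and the TET1 to TET2 and TET1 to TET3 differences were 1.40 and 1.37 (exact sign-flip permutation p = 0.25, the smallest possible). Over all genes the block gave 1232 higher and 1235 lower.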
